A study of Mus musculus with 6 samples.

Results

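The genes described here are those that encode the proteins of the cytosolic ribosome. They were chosen by name from the 51733 gene symbols of the count tables: every symbol that begins with Rpl or Rps and goes on as a ribosomal protein number (with an a, x or l and 1 more digit allowed), the stalk genes Rplp0, Rplp1 and Rplp2, and Rpsa. Symbols with a hyphen, which mark pseudogenes, were left out. The rule found 88 genes, 52 with large subunit names and 36 with small subunit names. The annotation lists 83 of them as protein coding and Rpl6l, Rps12l1, Rps3a2, Rps3a3 and Rps4l as pseudogenes. They lie on 19 different chromosomes, 4 of them on X, and 30 of them hold 58 annotated small nucleolar RNA (snoRNA) genes within their bounds on the same strand.

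RNA was measured in neural progenitor cells (NPCs), the dividing cells of the embryonic neural tube, sorted by fluorescence for Sox2 from E13.5 mouse embryos. The paper describes its Ybx1-KO mice as back-crossed to C57BL/6. Controls were wildtype siblings (3 libraries), and Ybx1-KO embryos were homozygous for the germline null allele Ybx1 tm1Ley (3 libraries), a constitutive loss that is not confined to NPCs. Which part of Ybx1 the allele removes is not given in the sources used here. The Sox2-eGFP reporter used for the sort sits in the Sox2 locus and was carried by both genotypes, and embryos of both sexes were used. The paper lists the reporter line under a mixed strain name, not C57BL/6 alone. Controls 1 and 2 share the first number of their sample titles, as do Ybx1-KO 1 and 2. The sources used here do not say whether such libraries come from 1 litter, so p-values measure the spread between these libraries, part of which may be technical.

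Ribosomal proteins are made in near equal numbers, since each ribosome takes 1 copy of nearly every one, with the acidic stalk proteins as the exception. Their mRNAs are short, abundant and long-lived, and most begin with a C followed by a run of pyrimidines, the 5′ terminal oligopyrimidine (TOP) motif, through which growth signals control their translation. Ybx1 (YB-1) is a cold-shock domain protein that binds RNA and DNA and packs mRNAs. Several ribosomal proteins have paralogues with restricted expression, and a few have duties away from the ribosome.

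The libraries held 20841990 to 23883542 counts on genes in controls and 8483075, 13321952 and 4743279 in Ybx1-KO 1, 2 and 3. Levels below are normalized CPM, that is counts scaled to a library total after TMM correction for composition. Ybx1 itself stood at 239, 531 and 306 CPM in controls 1 to 3 and at 126, 55.3 and 9.66 CPM in Ybx1-KO 1 to 3. No Ybx1-KO library reached a control, with a log2 difference of -2.49 ± 0.68 (SE, n = 3 each, edgeR adjusted p = 0.301; exact permutation p = 0.1, the smallest that 3 against 3 can give). Without Ybx1-KO 1 the difference was -3.46 and passed the threshold (edgeR adjusted p = 0.0277). Ybx1-KO 3 stood apart from the others. Of its read pairs, 59.5% fell outside genes, against 30.6% to 46.7% elsewhere, and odorant, vomeronasal and taste receptor genes summed to 4691 CPM in it (here without TMM correction) against 25.5 to 98.3 elsewhere. All 10 NPC markers were detected, and their sums were 1629 to 1798 CPM in controls and 1289 to 2272 in Ybx1-KO. Markers of other cells were present too. The 10 neuron markers summed to 3178 to 4747 CPM in controls and 1326 to 3489 in Ybx1-KO, and the 9 erythroid markers found in the tables summed to 524 to 1227 and 204 to 1192. The 8 mesenchyme markers summed to 168 to 926 CPM in controls and 93.9 to 152 in Ybx1-KO. The 6 endothelial markers summed to 20.4 to 48.7 and 12.8 to 43.2 CPM, and the 6 microglial and macrophage markers to 10.3 to 37.6 and 3.51 to 37.7. No marker found in the tables was at 0 in all 6 libraries. The part of other cells in the values below was not tested. In bulk RNA, fewer cells of a type cannot be told apart from less RNA per cell.

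Many of these genes carry a pyrimidine run at their annotated start. RefSeq start sites (GRCm38.p6) matched 63 of the 88 genes. An unbroken run of at least 8 C or T letters on the gene's own strand touched the 10 bases on either side of a start in 29 of them (46.0%), against 16.1% of all 27025 genes with a start site. The sequences below are 30 bases long and begin 10 bases before the annotated start. Capitals mark the longest stretch of C or T letters at the start, of any length, as far as it lies inside the printed window. At the first start of Rps27l that stretch is 9 letters long and begins before the window. Rpl15 and Rpl38 are shown as members with opposite signs of fold change that both carry a run. Rps3a1, Rpl5 and Rpl41 are shown as members at the ends of the fold change order without one. The paralogue pairs Rpl22 with Rpl22l1 and Rps27 with Rps27l are shown because their ratios are compared further on. Rpl22 and Rps27l each have a second annotated start, and both windows are printed, the one with the longer run first.

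Rpl15 (chr14:18270967-18270996, minus strand): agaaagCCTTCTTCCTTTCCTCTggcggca
Rpl38 (chr11:114668570-114668599, plus strand): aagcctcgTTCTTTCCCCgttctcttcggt
Rpl41 (chr10:128549149-128549178, minus strand): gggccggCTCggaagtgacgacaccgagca
Rpl5 (chr5:107900518-107900547, plus strand): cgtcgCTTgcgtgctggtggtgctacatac
Rps3a1 (chr3:86142649-86142678, minus strand): gCCggaagggcgaaagagcaagggtcacgt
Rpl22 (chr4:152324426-152324455, plus strand): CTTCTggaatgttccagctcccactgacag
Rpl22, second start (chr4:152325716-152325745, plus strand): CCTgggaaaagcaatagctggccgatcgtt
Rpl22l1 (chr3:28805498-28805527, plus strand): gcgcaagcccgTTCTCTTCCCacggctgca
Rps27 (chr3:90213629-90213658, minus strand): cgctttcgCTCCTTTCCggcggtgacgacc
Rps27l (chr9:66946076-66946105, plus strand): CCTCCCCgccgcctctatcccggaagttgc
Rps27l, second start (chr9:66946403-66946432, plus strand): gggCTTCagggtcactaacgggcctcgcag

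The runs stood beside fold changes of either sign. Of the members tested, 29 with a run of at least 8 had a median log2 fold change of -0.01 (14 above 0), and 31 with a shorter run had a median of 0.03 (16 above 0). A match of letters in these windows is a description of the annotation and does not show where transcription starts in NPCs.

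Ribosomal protein mRNA took up a small and uneven part of each library. The 88 genes together had 1.90%, 0.964% and 2.58% of the counts on genes in controls 1 to 3 and 3.29%, 1.01% and 2.25% in Ybx1-KO 1 to 3. In normalized CPM their sums were 18949, 10772 and 28284 in controls and 31644, 14018 and 15187 in Ybx1-KO. The highest and the lowest control differed 2.63-fold and the highest and the lowest Ybx1-KO library 2.26-fold, and the genotypes overlapped. The summed level of ribosomal protein genes differed by 0.07 on the log2 scale (two-sided exact permutation p = 0.9). The difference was -0.30 without Ybx1-KO 1 and -0.29 without control 2. At single genes the same libraries recurred at the ends. Of the 84 members tested, 43 were highest in Ybx1-KO 1 and 38 in control 3, and 61 were lowest in control 2.

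**Figure D1:**
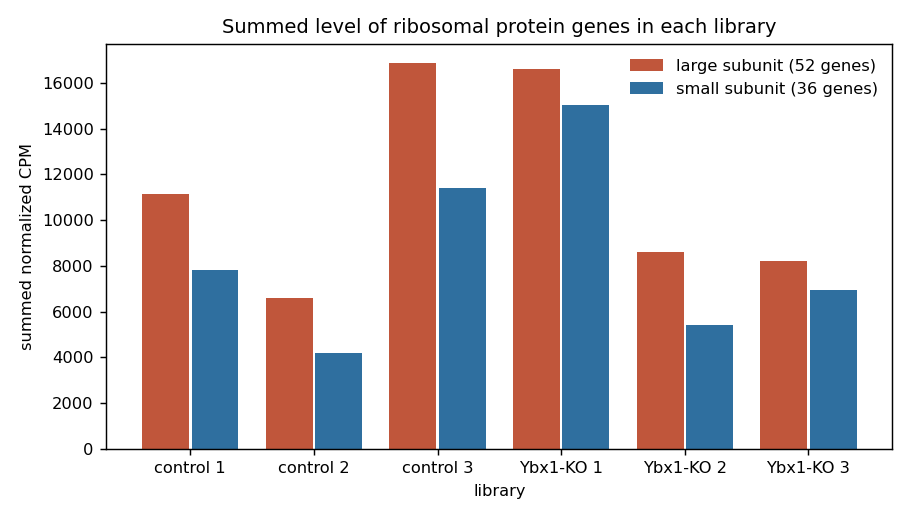
Summed normalized CPM (y axis) of the large subunit genes (red) and small subunit genes (blue) in each of the 6 libraries (x axis). Control 2 and Ybx1-KO 2 and 3 are low and control 3 and Ybx1-KO 1 high; in Ybx1-KO 1 the small subunit bar comes closest to the large subunit bar.

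The large and small subunit genes kept a similar but not fixed proportion. The large subunit sum over the small subunit sum was 1.43, 1.57 and 1.48 in controls 1 to 3 and 1.11, 1.60 and 1.18 in Ybx1-KO 1 to 3. Ybx1-KO 1 and 3 lay below every control and Ybx1-KO 2 above every control. The log2 difference of the ratio was -0.22 (exact permutation p = 0.4), and it was -0.03 when the median over genes replaced the sum. By gene, the median log2 fold change was 0.03 over 49 large subunit genes (range -1.07 to 1.67) and 0.03 over 35 small subunit genes (range -1.07 to 1.40), beside 0.31 over all 21330 genes tested. Of the 84 tested members 43 (51.2%) had a positive fold change, against 61.3% of all genes. Both medians were below 0 with no filter on low values, with libraries of 1 title number summed and without control 2 (-0.29 and -0.32), and without Ybx1-KO 1 the median over all 84 was -0.39 (-0.47 over 85 with the filter applied again), so the sign of neither median is firm. A fold change above 1.5 was fitted in 20 members (23.8%, against 41.9% of all genes), and a decrease by the same factor or more in 12 (14.3%, against 16.0%). Whether members lay below all genes depended on the setting. Without Ybx1-KO 3 the median was 0.09 over members and -0.07 over all genes, and without control 3 it was 0.40 and 0.35. With a CPM above 1 in at least 3 libraries the medians were 0.13 and 0.08. With limma-voom members stayed lower, at 0.09 against 0.15. Rpl10l, Rpl39l, Rpl3l and Rps12l1 were not tested because their mean FPKM did not pass 1 in either genotype.

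No ribosomal protein gene differed between the genotypes past the threshold. The quasi-likelihood test of edgeR, adjusted after Benjamini and Hochberg, called 0 members higher and 0 lower, and it called 0.0% of all genes in either direction. The smallest adjusted p of a member was 0.436. The median SE of a member's log2 fold change was 0.49, so 0 calls do not show that these genes were unchanged. At an unadjusted p below 0.05 there were 3 members higher (Rpl38, Rpl41 and Rps27l, 3.57% of the members tested, against 6.96% of all genes) and 2 lower (Rps3a1 and Rpl5, 2.38% against 4.26%). limma-voom also called 0 members and 0.0% of all genes. At an unadjusted p below 0.05 it gave 1 member higher (1.19%, against 3.54% of all genes) and 3 lower (3.57% against 4.21%). The paper used voom at the same thresholds and reports differing genes in both directions, so the all-gene results here depart from it. The reason was not tested. DESeq2 called 0 members, with 0.553% of all genes higher and 0.45% lower, and at an unadjusted p below 0.05 it gave 8 members higher (9.52% against 8.85%) and 4 lower (4.76% against 4.36%). No member had every Ybx1-KO library above every control (4.99% of all genes did). Rps3a1, Rpl5, Rpl3 and Rpl15, 4.76% of the members, had every Ybx1-KO library below every control, against 8.16% of all genes. The call depended on 1 library and on the filter. Without Ybx1-KO 2 and with the filter applied again, 7 of 86 members were called higher (8.14%, against 3.0% of all genes), Rps27l, Rpl38, Rpl36a, Rps21, Rps29, Rpl41 and Rpl35a. On the original set of genes 0 members were called without that library, beside 283 higher and 137 lower of all 21330 genes.

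**Figure D2:**
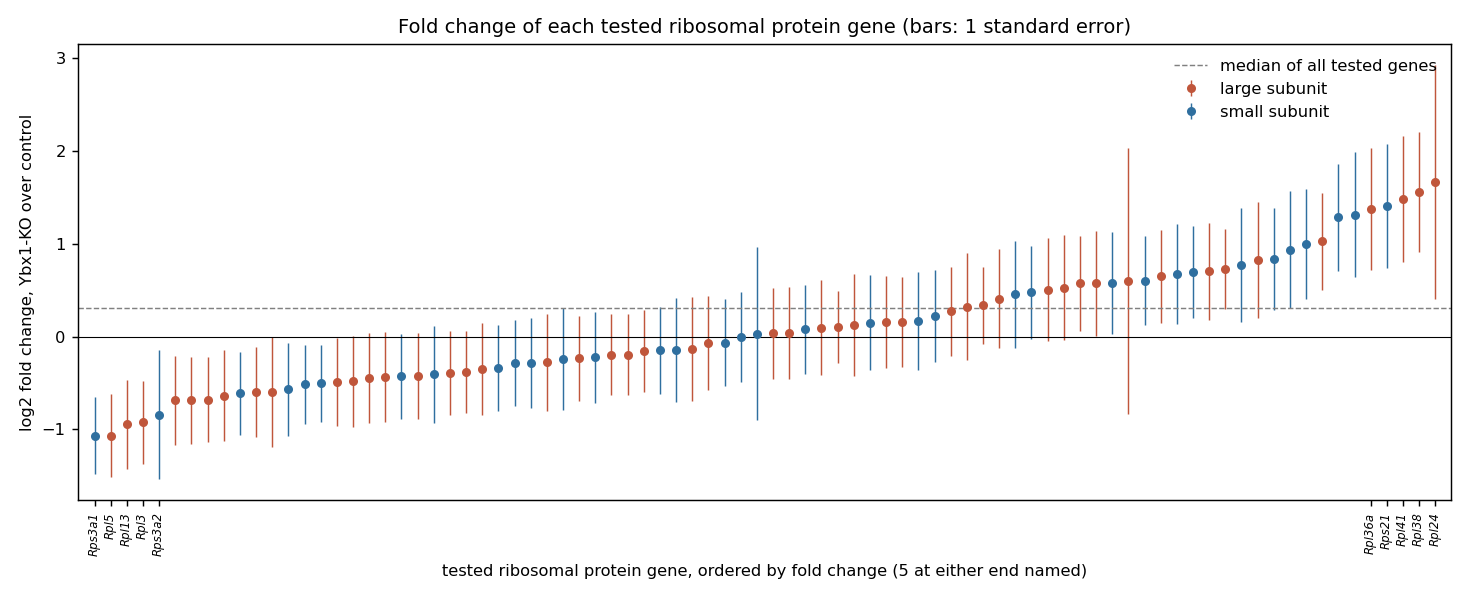
Log2 fold change of Ybx1-KO over control (y axis) for each of the 84 tested members (x axis, ordered by value, with the 5 at either end named), with bars of 1 standard error; red points are large and blue points small subunit genes, and the dashed line is the median of all tested genes. The members spread from -1.07 to 1.67, with small subunit and large subunit genes mixed along the order.

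Most of the 5 highest fold changes belonged to short genes. Rpl38 (chr11:114668524-114672331), a large subunit protein whose loss in mice disturbs the translation of Hox mRNAs and the axial skeleton, had 123, 55.7 and 221 CPM in controls 1 to 3 and 807, 122 and 246 CPM in Ybx1-KO 1 to 3. Ybx1-KO 1 was far above the rest, Ybx1-KO 2 fell among the controls, and Ybx1-KO 3 was just above control 3. The log2 fold change was 1.56 ± 0.64 (SE, n = 3 each, edgeR adjusted p = 0.444) and 0.47 without Ybx1-KO 1.

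Rpl41 (chr10:128548114-128549305) encodes the shortest ribosomal protein. Its values were 337, 145 and 444 CPM in controls and 1848, 228 and 506 CPM in Ybx1-KO, for a log2 fold change of 1.48 ± 0.68 (adjusted p = 0.444). Without Ybx1-KO 1 it was 0.25. Rpl41 alone made up 5.84% of all ribosomal protein counts in Ybx1-KO 1 and 3.33% in Ybx1-KO 3, against 1.35% to 1.78% in the other 4 libraries.

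Rps21, Rps29 and Rpl36a, all short, had their libraries in a similar order. Rps21 had 173, 71.7 and 303 CPM in controls and 1001, 124 and 324 CPM in Ybx1-KO (log2 fold change 1.40 ± 0.67, adjusted p = 0.445). Rps29, a zinc-binding protein of the small subunit head, had 189, 59.2 and 259 CPM in controls and 882, 109 and 268 CPM in Ybx1-KO (1.31 ± 0.67, adjusted p = 0.450). Rpl36a, on X, had 119.6, 45.4 and 166 CPM in controls and 592, 60.1 and 208 CPM in Ybx1-KO (1.38 ± 0.66, adjusted p = 0.446). In each of them Ybx1-KO 2 lay among the controls and control 2 was the lowest library. Without Ybx1-KO 1 the log2 fold changes of Rps21, Rps29 and Rpl36a were 0.30, 0.16 and 0.28.

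The 5 lowest fold changes were those of Rps3a1, Rpl5, Rpl13, Rpl3 and Rps3a2, the last a pseudogene of the Rps3a1 family described further on. Rps3a1 (chr3:86137940-86142702), a small subunit protein near the mRNA exit, had 180.1, 227 and 263 CPM in controls and 80.3, 103 and 135 CPM in Ybx1-KO, with no overlap. Its log2 fold change was -1.07 ± 0.41 (adjusted p = 0.436), between -1.31 and -0.90 when each library was left out. Rpl5 (chr5:107900502-107909005), which carries 5S ribosomal RNA into the large subunit together with Rpl11 and can bind Mdm2, had 526, 342 and 581 CPM in controls and 223, 269 and 199.6 CPM in Ybx1-KO. The log2 fold change of Rpl5 was -1.07 ± 0.45 (adjusted p = 0.444), between -1.26 and -0.91 with each library left out. Without Ybx1-KO 1 the values of Rps3a1 and Rpl5 were -0.90 and -1.04.

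Rpl3, which lies beside the peptidyl transferase centre, had 426, 308 and 527 CPM in controls and 259.8, 236 and 169 CPM in Ybx1-KO (log2 fold change -0.92 ± 0.45, adjusted p = 0.447). Rpl15, named because its genotypes did not overlap and chosen after its values were seen, had 241, 264 and 481 CPM in controls and 229, 239.6 and 148 CPM in Ybx1-KO (-0.68 ± 0.45, adjusted p = 0.4996). Its highest Ybx1-KO library and its lowest control were almost level. Rpl13 had 407, 219 and 569.5 CPM in controls and 269, 157 and 194 CPM in Ybx1-KO (-0.95 ± 0.48, adjusted p = 0.450), and here control 2 fell between Ybx1-KO libraries. Rpl11, the partner of Rpl5, had a log2 fold change of -0.49 ± 0.48 (adjusted p = 0.633).

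The stalk proteins, which recruit translation factors, gave mixed values. Rplp0, the stalk base, had 267, 174 and 373 CPM in controls and 294, 205 and 103 CPM in Ybx1-KO (log2 fold change -0.43 ± 0.48, adjusted p = 0.678). Its partners Rplp1 and Rplp2, short acidic proteins, had log2 fold changes of 0.83 ± 0.63 and 0.70 ± 0.52 (adjusted p = 0.535 for both). Each was highest in Ybx1-KO 1, at 585 CPM for Rplp1 and 578 CPM for Rplp2, and in all 3 genes the genotypes overlapped. Rplp0 has a coding length of 951 bases and Rplp1 and Rplp2 have 342 and 345.

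Rpsa, a small subunit protein also described as a laminin receptor, was the long gene with the most positive value. It had 299, 257 and 561 CPM in controls and 1442, 317 and 478 CPM in Ybx1-KO (log2 fold change 1.00 ± 0.59, adjusted p = 0.467). Ybx1-KO 1 alone lay above the controls, and without it the value was 0.09. Rps3, which also has a role in DNA repair, had 432, 287 and 747 CPM in controls and 1677, 376 and 449 CPM in Ybx1-KO (0.77 ± 0.62, adjusted p = 0.552), and -0.24 without Ybx1-KO 1. Rps27a, made as a fusion with ubiquitin, had 116.1, 48.8 and 148 CPM in controls and 230.0, 90.03 and 155 CPM in Ybx1-KO (0.60 ± 0.48, adjusted p = 0.554).

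Levels can be compared between genes only per length. Per kilobase of the shortest principal transcript, Rpl41 had the highest mean over the 6 libraries (1338 CPM per kb), followed by Rps27 (1034), Rps21 (845), Rpl38 (760.1) and Rps29 (754). These ranks rest on Ybx1-KO 1: in it Rpl41 stood at 4228 CPM per kb and Rps29 at 2261, while in control 2 they stood at 333 and 152. In control 3 the highest of these 5 was Rps27 at 1140 CPM per kb, below Rpl31 at 1312. Rpl24 was the exception at the low end, with 8 to 51 counts in a library. Another annotated gene, Gm28037, overlaps it on the same strand and had 0 counts in every library. Rpl13a, at 23.3 to 83.5 CPM, likewise shares its strand with Gm45713, which had 0 counts. Whether reads shared with these genes were set aside as ambiguous was not tested. Exons of another gene overlap 27 members on the same strand (in 6 of them a gene other than a snoRNA inside the member) and 20 on the opposite one. The log2 fold change of Rpl24, 1.67 ± 1.26 (adjusted p = 0.535), is the highest of any member and has the widest error among the 5 highest.

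The order of members followed coding length. Over the 79 protein-coding members with at least 100 counts per library on average, Spearman's rho between the log2 fold change and the coding length was -0.558. Over 13614 other protein-coding genes tested it was -0.137. That set had no limit on counts beyond the FPKM filter and none on coding length, so the 2 sets are not matched. These points share libraries and scaling, genes are not independent replicates, and the values are descriptions. The 10 shortest, from Rpl41 (75 bases) to Rpl37 (291 bases), had log2 fold changes of 0.10 to 1.56, all 10 above 0, with a median of 1.11. The 10 longest, from Rps3a1 (792 bases) to Rpl4 (1257 bases), had values of -1.07 to 1.00, with 8 below 0 and a median of -0.44. Rps2 and Rpsa were the 2 long genes above 0.

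Length also went with the level of members in single libraries, relative to the other libraries. Because each gene is set against its own 6-library mean, its values cancel over the libraries. Short members that are high in 1 library are thereby set lower in others, so the rho values below are not independent of each other. With each gene set against its own mean over the 6 libraries, rho between level and coding length was 0.353, 0.824 and 0.190 in controls 1 to 3 and -0.546, 0.432 and -0.646 in Ybx1-KO 1 to 3. Control 2 was thus the library in which short members were lowest relative to long ones, and Ybx1-KO 2 had the same sign as the controls. Over the other protein-coding genes the same libraries gave 0.0987, 0.372 and -0.241 and -0.187, 0.204 and -0.0472. The summed CPM of the 10 shortest over that of the 10 longest was 0.484, 0.265 and 0.565 in controls and 1.69, 0.423 and 1.16 in Ybx1-KO. Ybx1-KO 1 and 3 were above every control and Ybx1-KO 2 lay among them.

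**Figure D3:**
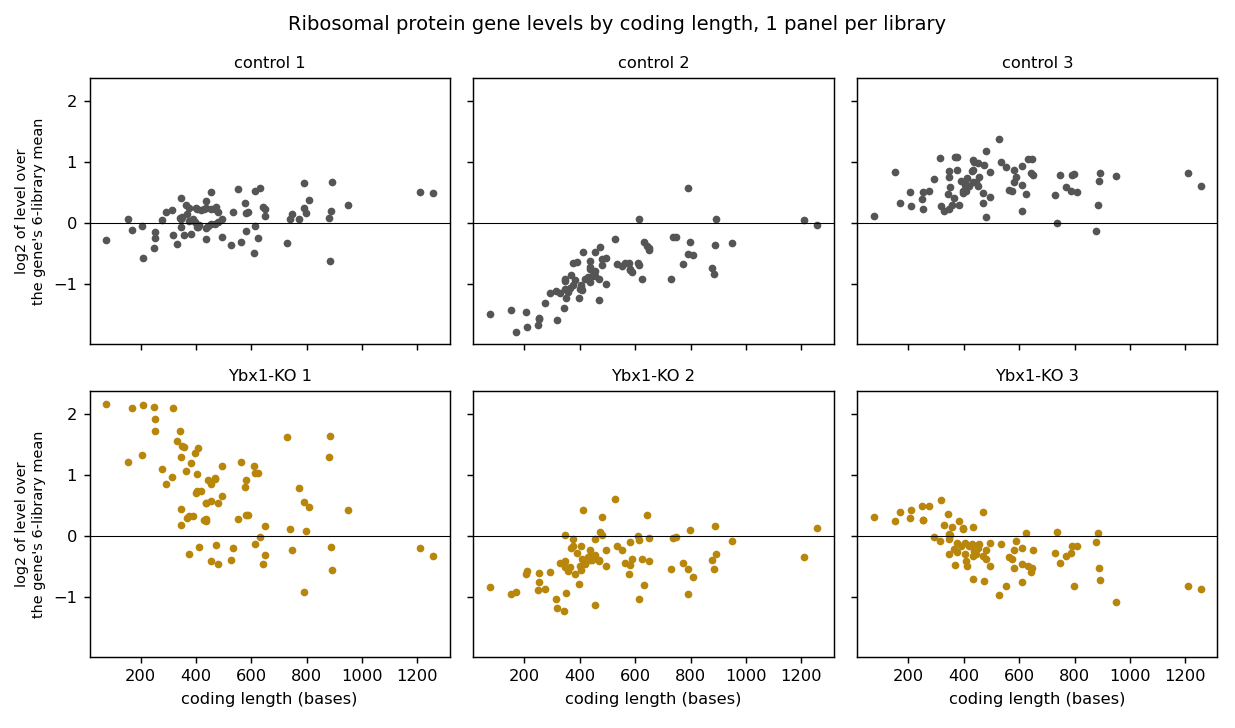
Log2 level of each of 79 members relative to its own mean over the 6 libraries (y axis) against coding length in bases (x axis), 1 panel per library, controls in grey and Ybx1-KO in gold. Short members lie low in control 2 and Ybx1-KO 2 and high in Ybx1-KO 1, where Rpl41 is 2.18 above its mean, and the slope in Ybx1-KO 3 has the sign of Ybx1-KO 1.

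Leaving out Ybx1-KO 1 lowered the fold changes of the shortest members far more than it changed rho. Without that library the median of the 10 shortest was 0.09, against 1.11 with all 6 libraries. Of the 10, 8 were above 0, and the median was -0.0079 with the filter applied again. On the original set of genes the median of the 10 longest was -0.63 and rho was -0.501, against -0.558 with all 6 libraries. Without Ybx1-KO 3, the library with many reads outside genes, the medians were 1.32 and -0.25 and rho was -0.522. When a smooth trend of each library with coding length was removed from all protein-coding genes, an alternative chosen after seeing the data, the medians were 0.94 and -0.33 and rho was -0.489. The Ybx1-KO libraries also had fewer counts than the controls, and the part of depth in this order was not tested.

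Within libraries the extremes named the same few genes. Rpl41 and Rpl38 were the highest of the 79 in Ybx1-KO 1, at 2.18 and 2.14 above their means on the log2 scale, and Rps3a1 and Rpl5 the lowest, at -0.91 and -0.56. In control 2 the lowest were Rps29 (-1.79) and Rpl38 (-1.70), and Rps3a1 was the highest (0.58). The spread of members within a library (SD of these log2 values) was 0.743 in Ybx1-KO 1 and 0.278 to 0.450 in the other 5.

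Paralogues were compared with their parent genes inside each library, which removes the scaling between libraries. Rps27l (chr9:66946086-66949516), a near copy of Rps27 and a p53 target, had counts equal to 11.2%, 11.8% and 9.87% of those of Rps27 in controls 1 to 3 and 14.0%, 13.3% and 12.0% in Ybx1-KO 1 to 3. Every Ybx1-KO library was above every control. The mean was 10.95% ± 0.991 (SD, n = 3) against 13.1% ± 0.980, a log2 difference of 0.26 (exact permutation p = 0.1, the smallest possible; 0.5 after Benjamini-Hochberg adjustment over 5 pairs). With each library left out the difference stayed between 0.19 and 0.32. In CPM, Rps27l had 27.8, 10.95 and 38.8 in controls and 128, 21.7 and 39.8 in Ybx1-KO, and Rps27 had 249, 92.7 and 393 against 913, 163 and 330.3. Their log2 fold changes were 1.29 ± 0.58 (adjusted p = 0.444) and 0.94 ± 0.63 (adjusted p = 0.499). Both have a coding length of 252 bases, but their shortest principal transcripts differ, at 499 bases for Rps27l and 345 for Rps27. Reads in stretches that the copies share may be split between them.

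Rpl22l1 (chr3:28805436-28807424), whose mRNA is restrained by the Rpl22 protein in other cells, had a ratio that overlapped between genotypes. It had 30.3%, 19.9% and 23.9% of the Rpl22 counts in controls and 20.1%, 23.6% and 15.9% in Ybx1-KO. The means were 24.7% ± 5.27 (SD, n = 3) and 19.8% ± 3.85 (log2 difference -0.31, exact permutation p = 0.3, adjusted 0.5). Rpl22l1 had 45.8, 17.6 and 49.9 CPM in controls and 78.6, 26.2 and 32.1 CPM in Ybx1-KO (log2 fold change 0.27 ± 0.48, adjusted p = 0.798). Rpl22 had 151, 88.6 and 209 CPM against 391, 111 and 202 CPM (0.65 ± 0.50, adjusted p = 0.539).

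Rpl7l1, a nucleolar relative of Rpl7, varied least of the tested members, with an SD over mean of 0.0839 across the 6 libraries (the next was Rpl29 at 0.284). It had 18.9, 15.3 and 17.99 CPM in controls and 19.5, 17.7 and 18.9 CPM in Ybx1-KO, with a log2 fold change of 0.11 ± 0.39 (adjusted p = 0.915). Its share of Rpl7 counts was 7.39%, 11.2% and 6.40% in controls and 7.13%, 14.3% and 10.8% in Ybx1-KO (log2 difference 0.35, exact permutation p = 0.5, adjusted 0.625). Rpl7 varied more, at 255, 136 and 281 CPM against 273, 123 and 174.6 CPM.

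**Figure D4:**
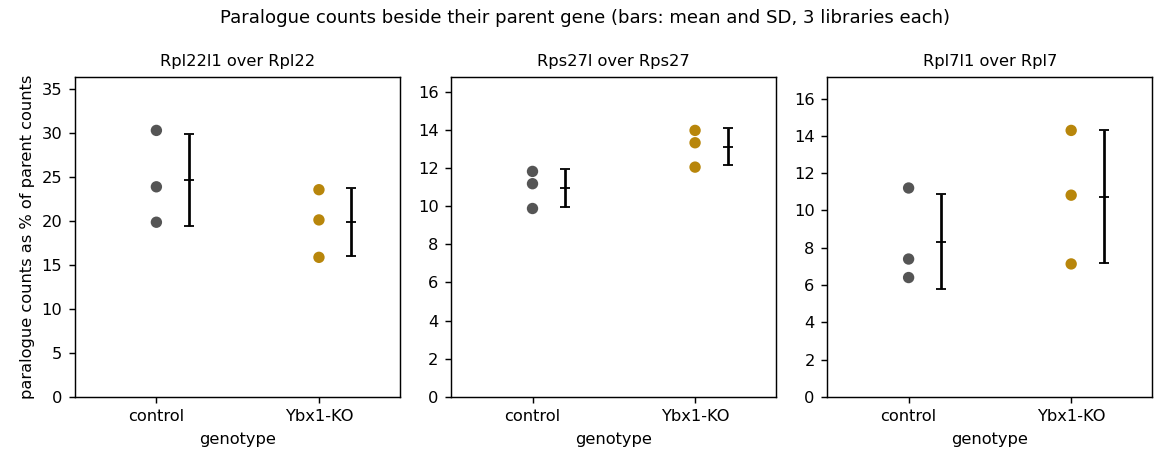
Counts of the paralogue as a percent of the counts of its parent (y axis) in each library of the control and Ybx1-KO genotypes (x axis), for Rpl22l1 over Rpl22, Rps27l over Rps27 and Rpl7l1 over Rpl7; bars are mean and SD of 3 libraries. The genotypes are apart for Rps27l over Rps27 (9.87% to 11.8% against 12.0% to 14.0%) and overlap for the other pairs.

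The paralogues known from testis and muscle were at or near the limit of detection. Rpl10l, which stands in for X-linked Rpl10 in male germ cells, had 0, 2 and 0 counts in controls and 0, 0 and 1 in Ybx1-KO. Rpl39l, a testis form of Rpl39, had 12, 4 and 0 counts in controls and 0, 0 and 11 in Ybx1-KO. Rpl3l, the striated muscle form of Rpl3, had 0, 0 and 6 counts in controls and 0, 1 and 7 in Ybx1-KO. A total of 0 counts allows up to 3, or 0.140 normalized CPM in control 2 and 0.426 in Ybx1-KO 3, for counting error alone. The highest CPM of each of these 3 genes was in Ybx1-KO 3, the library with 59.5% of its read pairs outside genes, and the part of such reads in these values was not tested. The ratio to the parent gave an exact permutation p of 1 for Rpl39l and of 0.2 for Rpl3l (adjusted 0.5). At these counts a difference was not detectable, and no ratio was computed for Rpl10l, which had under 10 counts in all.

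Counts of Rps3a1 were shared with intronless copies. Of the counts on Rps3a1, Rps3a2 and Rps3a3 together, Rps3a3 (chr13:108670603-108671397, a processed pseudogene) took 45.6%, 0.368% and 27.2% in controls 1 to 3 and 66.5%, 25.8% and 31.4% in Ybx1-KO 1 to 3. Control 2 therefore held nearly all of its counts on Rps3a1 (98.9%), and control 1 less than the other two took together (48.1%). The family together had 375, 229 and 380.4 CPM in controls and 268, 146 and 208 CPM in Ybx1-KO, which overlap, whereas Rps3a1 alone did not overlap. Rps3a2 had a log2 fold change of -0.84 ± 0.70 (adjusted p = 0.571) and Rps3a3 of 0.03 ± 0.94 (adjusted p = 0.991). Near-identical copies can exchange reads, so the values of single members of this family are uncertain.

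The other listed pseudogenes were low. Rps4l had 7.48, 11.4 and 9.55 CPM in controls and 24.7, 9.76 and 4.40 CPM in Ybx1-KO, against 671, 298 and 612 CPM and 623, 218 and 351 CPM for Rps4x, the X-linked gene that both sexes use. Their log2 fold changes were 0.45 ± 0.58 (adjusted p = 0.718) and -0.41 ± 0.52 (adjusted p = 0.721). Rpl6l stood at 0.672 to 2.13 CPM. Of the 276 hyphenated ribosomal protein pseudogenes, 123 were tested, with 96 values above 0 (78.0%, against 61.3% of all genes) and a median log2 fold change of 0.95. At an unadjusted p below 0.05, 4 were higher (3.25%, against 6.96% of all genes) and 1 lower (0.813% against 4.26%). Their counts were 1.22% to 1.54% of those of members and pseudogenes together in controls and 1.39% to 2.41% in Ybx1-KO. The 276 together summed to 296, 133 and 360 CPM in controls 1 to 3. In Ybx1-KO 1 to 3 the sums were 780, 197 and 320 CPM, so that Ybx1-KO 1 alone lay above the controls. The 123 tested could pass the FPKM filter through 1 genotype alone.

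Genes that work with the ribosome had medians from -0.41 to 0.85 by list, and no gene on these lists was called. Some ribosomal protein genes have names outside the naming rule. Rpl36al, a near copy of Rpl36a, had 3.74, 1.87 and 4.06 CPM in controls and 37.9, 1.77 and 11.1 CPM in Ybx1-KO (log2 fold change 2.39 ± 0.79, adjusted p = 0.402), high in the same libraries as Rpl36a. Fau, which encodes Rps30 behind a ubiquitin-like domain, had 0.83 ± 0.50 (adjusted p = 0.471).

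Other mRNAs of translation with a TOP motif had mostly negative values, 12 of 16 below 0 (4 above 0, against 61.3% of all genes), and a median of -0.41. At an unadjusted p below 0.05 this list had 0 genes in either direction. Eef1g had 359, 342 and 502 CPM in controls and 244 (Ybx1-KO 1), 269 (Ybx1-KO 2) and 134 (Ybx1-KO 3), a log2 fold change of -0.89 ± 0.46 (adjusted p = 0.450), and Eif3e -0.79 ± 0.41 (adjusted p = 0.450). Eef1d was on the other side at 0.82 ± 0.42 (adjusted p = 0.450). The 7 snoRNA host genes with a TOP motif, which make spliced RNAs with little coding capacity, all had positive values (against 61.3% of all genes, median 0.85), with 2 higher at an unadjusted p below 0.05 (28.6%, against 6.96% of all genes). Their sums were 667, 290 and 706 CPM in controls and 1687, 380 and 606 CPM in Ybx1-KO, so that Ybx1-KO 1 alone lay above the controls. Snhg8 among them had 21.3, 5.48 and 25.4 CPM in controls and 115.5, 12.5 and 28.3 CPM in Ybx1-KO.

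The mitochondrial ribosome and the factors that build ribosomes had medians of 0.15 and 0.02, beside 0.31 over all genes. Of 77 mitochondrial ribosomal protein genes tested, 41 values were above 0 and 36 below. At an unadjusted p below 0.05, 5 were higher (6.49%, near the 6.96% of all genes) and 0 lower (against 4.26%). Of 35 ribosome biogenesis genes, 18 were above 0 and 17 below. At the same p, 0 were higher and 3 lower (8.57%, against 4.26% of all genes). Those 3 were Mak16 (log2 fold change -0.94 ± 0.37, adjusted p = 0.436), Dkc1, the pseudouridine synthase of H/ACA snoRNPs (-0.92 ± 0.37, adjusted p = 0.439), and Utp14a (-0.78 ± 0.36, adjusted p = 0.444). In 5 genes of this list (14.3%, against 8.16% of all genes) every Ybx1-KO library was below every control. In 3 genes of it (8.57%, against 4.99% of all genes) every Ybx1-KO library was above every control.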

How the data were processed

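RNA of 3 control and 3 Ybx1-KO samples of Sox2-positive NPCs was sequenced as stranded total RNA, paired-end. The authors counted read pairs on genes with HTSeq 0.6.1p1 (per the submitters' processing notes, which also name CASAVA, mm10 and GRCm38.p5) and deposited raw counts per gene symbol, 1 table per library. The aligner and the strand setting of the counting are not given in the sources used here.

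Counts were normalized by TMM. Genes were kept where mean FPKM passed 1 in control or Ybx1-KO libraries (FPKM from exon lengths in GENCODE M21 on GRCm38, 47624 symbols matched, 359 by an older symbol, 3750 not) and fitted with edgeR 4.0.16 (quasi-likelihood, R 4.3.3) over the whole table, without covariates, and called where the Benjamini-Hochberg adjusted p was below 0.05 and the fold exceeded 1.5, thresholds and filter after the study's methods. limma-voom (limma 3.58.1) and DESeq2 1.42.0 were alternatives, as were other scalings, filters and lengths and leaving out each library. Coding length is the median over principal transcripts. Single values were tested by two-sided exact permutation over libraries (scipy 1.17.1), paralogue ratios after adding 0.5 counts. Scripts were tested on simulated data. Counts cover 4743279 to 23883542 per library. Values after ± are SEs of the fit or SDs over the libraries of a genotype, and both include the spread between libraries. The limits given for 0 counts cover counting error only, and read pairs carry no molecular identifiers. Figures were drawn with matplotlib 3.10.9.

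The members, lists and tests were chosen with earlier results of these data known. Named genes were Ybx1, the paralogue pairs, the stalk genes, Rpsa, Rps27a, the 5 tested members at either end by fold change, by mean FPKM and by exon length, members past the threshold, and up to 3 genes per companion list by unadjusted p. Genes named beyond that rule, among them Rpl15, Rpl11, Rpl31, Rpl35a and Rps2, were chosen after their values were seen. Results for some single genes are not reported here.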

Additional observations from a re-analysis of the deposited data

Results flagged for a closer look

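Values outside the comparisons exceeded every control in single Ybx1-KO libraries. The summed CPM of 1481 annotated snoRNA genes, without TMM correction, was 326 in Ybx1-KO 1 and 498 in Ybx1-KO 3, against 108 to 138 in controls and 115.8 in Ybx1-KO 2. The percent of tallied read pairs outside genes was 59.5 in Ybx1-KO 3, above the 36.2 to 46.7 of the controls. No test was run on these values, and their part in the values of ribosomal protein genes was not tested.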

How the results depend on the processing

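No paired analysis was possible because no title number occurs in both genotypes. Calls of members stayed at 0 lower under every alternative run and at 0 higher except without Ybx1-KO 2 with the filter applied again (7), so leave-one-out fits gave 0 to 7 higher. Calls over all genes were 0 in the main fit and 113 higher and 80 lower of 42828 with no filter. Without Ybx1-KO 1 they were 79 and 28 of 21330, or 531 and 165 of 24301 with the filter applied again. Without Ybx1-KO 2 they were 283 and 137 of 21330, or 730 and 216 of 24346 with the filter applied again. Ybx1 passed the threshold with DESeq2 (-2.44) and with no filter (-2.52), and ran from -3.49 to -1.95 with each library left out, past the threshold without Ybx1-KO 1 and, with the filter applied again, also without Ybx1-KO 2 (-2.34). Each library was left out on the same genes and, chosen after seeing the data, with the filter applied again. Over the same leave-one-out fits the summed level of ribosomal protein genes ran from -0.30 to 0.40, the median of large subunit genes from -0.48 to 0.39 and of small subunit genes from -0.43 to 0.46, and signs changed within the ranges of Rps19 (-0.26 to 0.74), Rpl22l1 (-0.45 to 0.62), Rpl39 (-0.44 to 0.92), Rps24 (-0.29 to 0.48), Rpl36 (-0.89 to 0.48), Rps15a (-0.44 to 0.24), Rps4l (-0.46 to 0.89), Rplp1 (-0.25 to 1.34), Rps3 (-0.32 to 1.22), Rpl22 (-0.028 to 1.07), Rps27 (-0.089 to 1.46), Rpl7l1 (-0.0025 to 0.26), Rplp2 (-0.050 to 1.08), Rps20 (-0.025 to 1.25) and Rpl7 (-0.67 to 0.088). The Rpl39l to Rpl39 ratio, which rests on 27 counts, became 0.63 with 5 counts added and ran from -1.93 to 1.16 with each library left out. Signs also changed with total count scaling for Rpl7 (0.022), Rpl36 (0.14) and Rps15a (0.086), with no filter for Rpl7l1 (-0.021) and Rps19 (-0.048), and with libraries of 1 title number summed for Rpl22l1 (-0.00035), Rpl39 (-0.0059), Rps19 (-0.22) and Rps24 (-0.053). The cause was not tested. The median log2 fold change of all genes was 0.31 with TMM, 0.53 with total counts and 0.70 with no filter. It was lower in other settings, at 0.15 with limma-voom and 0.08 with a CPM above 1 in at least 3 libraries. Without Ybx1-KO 3 it was -0.07, so its sign is not firm. Depth limits the lowest members, Rpl10l, Rpl39l, Rpl3l and Rps12l1.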
